A study of Mus musculus with 4 samples.

Results

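The haem synthesis enzymes were followed in liver RNA of newborn-stage mice through 9 genes, chosen by name from the array annotation: Alas1, Alas2, Alad, Uros, Urod, Cpox, Ppox and Fech, which encode enzymes of the pathway, and Slc25a38, which encodes a mitochondrial carrier that serves its first step. They had 11 probes of the 55681 on the array, and the array named 36161 genes in all. The samples were livers of microsomic mice, which fell below a sex-specific weight limit at birth, and of littermate controls of normal weight. The groups were control females (CF), microsomic females (MF), control males (CM) and microsomic males (MM), and each of the 4 was represented by 1 array. The methods describe replicate experiments for each group, and arrays beyond these were not analysed here. All animals were untreated inbred mice with no engineered allele, and both the substrain and the age are given in different ways: the labels state C57BL/6J at embryonic day 20, and the methods state C57BL/6 N newborns. Whether an array held RNA of a single animal or of a pool is not stated in the sources used here.

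Haem is built from glycine and succinyl-CoA in a chain of enzymes that begins and ends inside the mitochondrion and runs through the cytosol in between. The first step, catalysed by 5-aminolevulinate synthase, sets the pace, and it exists as a general form, ALAS1, and as an erythroid form, ALAS2. Around birth the liver still makes red blood cells beside its hepatocytes, so that erythroblasts, which make haem for haemoglobin, and hepatocytes, which make it for cytochromes P450 and other haem proteins, share the tissue. The question for these genes was whether microsomic and control livers of either sex differed in them.

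Each value below is the relative level of a probe, the log2 of its processed signal after the array's own 75th percentile was subtracted, and levels of different probes were not set against each other. With 1 array per group a difference between a pair of arrays has no replicate error and no p-value. As a scale, probes printed in many spots and as bright as the members varied between spots of an array with a standard deviation of 0.23 to 0.29, and by 0.40 for a difference between the female arrays and 0.355 between the male arrays, which covers spot-to-spot error alone. The 4 arrays lay on the same slide, the microsomic ones in a column of their own beside a column of controls, so column and group cannot be told apart.

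By the 75th percentile of the signal, the microsomic arrays (893 on MF, 925 on MM) were brighter than the control arrays (676 on CF, 628 on CM). The share of non-control spots well above background was also higher, 63.7% on MF and 65.3% on MM against 57.7% on CF and 56.1% on CM. Values without scaling keep this difference. Of the sex check genes, Xist was well above background on both female arrays alone and Ddx3y, Eif2s3y and Uty on both male arrays alone. Kdm5d was not well above background on any array. Sets of marker genes of other organs stood apart, most of all on the female arrays. The summed signal of 11 heart muscle markers was 229 on CF against 2.68, 3.17 and 7.03 on MF, MM and CM, and Myh6, the alpha myosin heavy chain of heart muscle, was at least 1194-fold higher on CF than on MF. In MF vs CF, 9 of the 10 intestine markers that could be compared were over 1.5-fold higher on MF, with a median difference of 4.04. Their summed signal was 266 on MF, 143 on CF, 141 on MM and 129 on CM. Most of each sum was Tff3, at 7.40, 7.05, 6.67 and 6.86 on these arrays, which differed by 0.35 in females. Cdx2, Cdh17 and Lypd8 were well above background on MF alone. The male pair carried smaller differences of the same kind: 7 of 11 heart markers were over 1.5-fold lower on MM than on CM (median -1.48), Myh6 at least 11.6-fold, and Fabp2, the intestinal fatty acid binding protein, was 5.22-fold higher on MM, although the 6 intestine markers compared had a median of -0.26. The part of either organ's RNA in the values of the haem synthesis genes was not tested. Among blood cell markers, 12 of 16 granulocyte and macrophage genes passed 1.5-fold upwards in MF vs CF and none downwards, whereas 2 were higher and 4 lower on MM than on CM. By the mean of both pairs they ran from Ngp, a neutrophil granule protein (2.47 in females and 0.14 in males), to C1qb, a complement chain of macrophages (0.32 and -0.89). Within a single pair other markers lay beyond these. Fewer cells of a type and less RNA per cell cannot be told apart in whole liver.

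All 11 probes were well above background on all 4 arrays, none was saturated, and each was printed in a single spot. In MF vs CF, 3 of the 9 genes were over 1.5-fold higher (Alas2, Alad and Cpox) and 2 were over 1.5-fold lower (Alas1 and Ppox). Of all 25112 genes compared, 41.6% passed 1.5-fold in this pair, 20.2% upwards and 21.4% downwards. In MM vs CM, 1 gene was over 1.5-fold higher (Cpox) and 2 were lower (Urod and Fech), against 43.3% of 24662 genes, 18.7% upwards and 24.6% downwards. The share of members past 1.5-fold was thus near the background in both pairs. Among the 3253 genes at least as bright as the dimmest member, 35.7% were over 1.5-fold higher and 9.93% lower in MF vs CF, and 12.1% and 12.3% in MM vs CM. The median difference of the members was -0.06 in females and -0.14 in males, beside -0.06 and -0.02 over all genes and 0.32 and -0.01 over those as bright as the members.

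**Figure D1:**
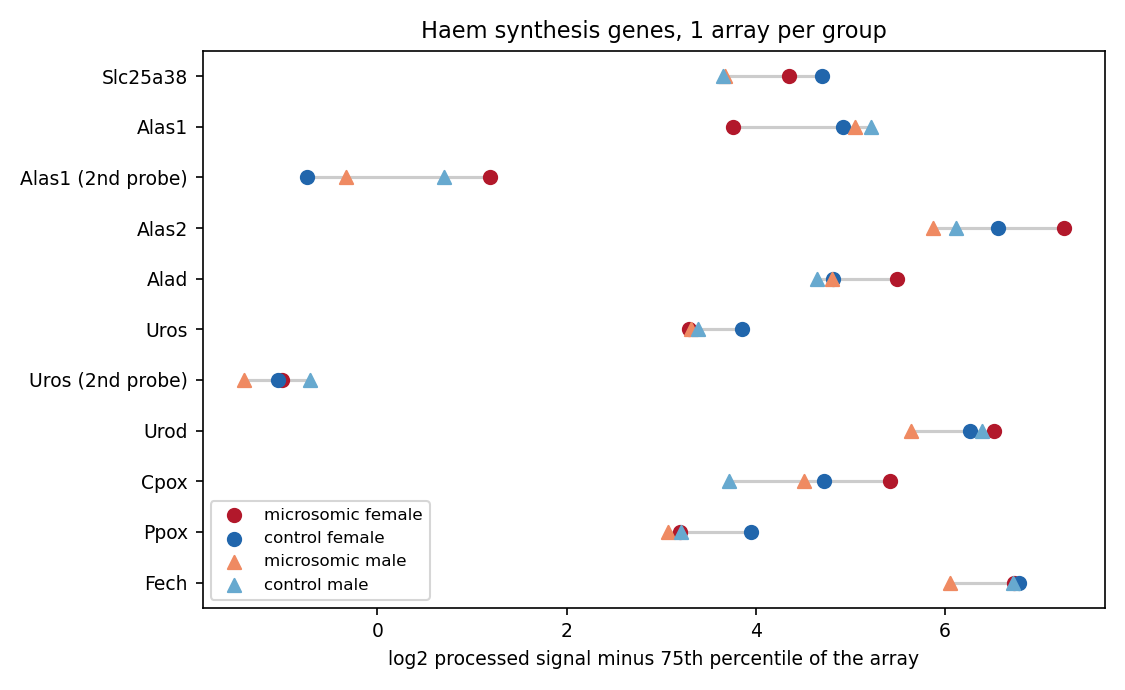
Relative level (log2 signal scaled to the array's 75th percentile) of the 11 probes of the 9 genes, with 1 point for each of the 4 arrays and a grey line from the lowest to the highest. Within a row the points can be compared, and a reader should see Alas1 lowest on the microsomic female array (3.76), Alas2 highest there (7.26) and Cpox higher on each microsomic array than on the control array of the same sex.

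Alas1, the general first enzyme, had its brighter probe (A_55_P2083649) at 3.76 on MF, 4.93 on CF, 5.05 on MM and 5.22 on CM. The MF array stood apart below the other 3. The difference was -1.17 in females, a signal 2.25-fold higher on CF, and -0.17 in males. It was the largest difference of any member in the female pair and the single one beyond 2 spot standard deviations there. Under the 9 ways of scaling and summarising that were tried, the female difference ranged from -1.80 to -0.77, and the male difference changed sign, from -0.31 to 0.68.

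The second probe of Alas1 ran the other way in females, while in males both probes were lower on MM than on CM. It read 1.19 on MF, -0.74 on CF, -0.33 on MM and 0.71 on CM, which is 1.93 higher on MF than on CF and -1.04 in MM vs CM. Its spot carried the non-uniformity flag of the scanner software on MF and no outlier flag on the other arrays. As the dimmer of the pair it did not enter the gene's value, which was the same with flagged spots kept. Of 762 spots with that flag on MF that were well above background on both female arrays, 89.0% were over 1.5-fold higher on MF, with a median difference of 2.06. The brighter probe lies at chr9:106136284-106136343 on mouse build mm9 (NCBI37), minus strand. Its bases 31 to 60 are shown because the gene's direction in females rests on it, and the capitals mark AATAAA, the hexamer that stands before a polyadenylation site.
Alas1, brighter probe: agaattgtctttatatgtgaAATAAAttat
Its GC content was 35%, against a median of 43.3% over all probes.

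Alas2, the erythroid first enzyme, was at 7.26 on MF, 6.56 on CF, 5.87 on MM and 6.11 on CM. It was highest on MF and lowest on MM, and both female arrays lay above both male arrays. The difference was 0.70 in females (1.62-fold) and -0.24 in males. The female value kept its sign under all of the settings except quantile normalization, where it was -0.10, and reached 1.10 without scaling. The male value ran from -1.05 to 0.32. The probe (A_51_P327451) lies at chrX:147004993-147005052 of mm9, plus strand, and is given whole because it is the gene's sole probe.
Alas2: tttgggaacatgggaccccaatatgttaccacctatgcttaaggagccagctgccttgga

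Set side by side, the pair of synthase genes differed in opposite directions in females. The Alas2 difference minus the Alas1 difference was 1.87 in MF vs CF, a 3.65-fold change of the signal ratio, and -0.07 in MM vs CM. Over the settings it ranged from 1.33 to 2.44 in females, and from -1.72 to 0.41 in males. With the flagged probe in place of the brighter one the female difference of Alas1 would exceed that of Alas2, so this contrast rests on the brighter Alas1 probe.

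The sequences before the transcription starts of the synthase genes are shown for their difference in motifs, since one gene is erythroid and the other general. They are the 250 bases before a RefSeq start on GRCm38.p6, a later build than the probes' mm9. Capitals mark AGATAA or TGATAA, the letters GATA factors bind, and CACCC, the core bound by KLF factors, searched on both strands.
Alas1, chr9:106247955-106248204, minus strand: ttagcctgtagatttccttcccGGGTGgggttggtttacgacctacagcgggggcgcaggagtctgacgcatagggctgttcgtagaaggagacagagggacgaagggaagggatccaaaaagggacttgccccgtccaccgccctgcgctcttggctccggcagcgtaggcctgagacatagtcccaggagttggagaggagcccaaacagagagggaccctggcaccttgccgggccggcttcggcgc
Alas2, chrX:150547167-150547416, plus strand: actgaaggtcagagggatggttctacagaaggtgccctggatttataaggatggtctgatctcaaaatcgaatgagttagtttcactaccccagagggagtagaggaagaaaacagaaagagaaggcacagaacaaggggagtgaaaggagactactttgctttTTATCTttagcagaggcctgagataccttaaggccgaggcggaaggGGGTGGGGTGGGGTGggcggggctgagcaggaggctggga
Alas2 held 1 AGATAA and 3 adjoining CACCC matches, all read from the opposite strand, and Alas1 held 1 CACCC and no GATA motif. Of 32851 promoter windows of the same length, 9.99% held AGATAA, 7.94% TGATAA and 52.0% CACCC. The 8 members searched had 11 windows, since Alas1, Alad and Uros each had more than 1 start. In at least 1 start, 3 members held a GATA motif (Alas2, Uros and Cpox) and 5 held CACCC (Alas1, Alas2, Alad, Cpox and Slc25a38). Either GATA motif was in 16.6% of all windows. The percentages count single windows, whereas a member counted with a match in any start, so they are not on the same measure. Cpox held 1 TGATAA and 4 CACCC. A match is a description of these letters, not a binding site.

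Slc25a38, the mitochondrial carrier needed for glycine supply to the erythroid synthase, was at 4.35 on MF, 4.70 on CF, 3.67 on MM and 3.65 on CM. The female arrays both lay above the male arrays, by at least 0.68, the widest such gap among the members. Microsomic and control arrays differed little within a sex, by -0.35 in females and 0.02 in males.

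Alad, which joins 2 molecules of aminolevulinate into porphobilinogen, was at 5.49 on MF, 4.81 on CF, 4.80 on MM and 4.65 on CM. The MF array stood above the other 3, which lay within 0.17 of each other. The difference was 0.68 in females (1.60-fold), between 0.18 and 1.08 over the settings, and 0.16 in males, where it changed sign (-0.83 to 0.71).

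Uros, which closes the porphyrin ring, was at 3.29 on MF, 3.86 on CF, 3.31 on MM and 3.39 on CM. CF stood above the other arrays, which were nearly level. The difference was -0.57 in females, just inside 1.5-fold and negative under each of the 9 settings (-0.99 to -0.16), and -0.07 in males. Its dimmer second probe, designed on the transcript AK164297, read -1.0025, -1.05, -1.41 and -0.71 on the same arrays, hence 0.05 in females and -0.70 in males. The probes of Uros thus disagreed in the pair in which each showed a difference.

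Urod, which removes carboxyl groups from uroporphyrinogen, was at 6.52 on MF, 6.26 on CF, 5.64 on MM and 6.39 on CM. MM was the low array, and the other 3 lay within 0.26. The difference was -0.75 in males, 1.68-fold higher on CM, and 0.26 in females. It stayed negative in males under the 9 settings, from -2.08 to -0.19, while the female value changed sign (-0.50 to 0.66).

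Cpox, the coproporphyrinogen oxidase that brings the pathway back to the mitochondrion, was at 5.42 on MF, 4.73 on CF, 4.51 on MM and 3.72 on CM. It was the only member over 1.5-fold in both sexes the same way, higher on the microsomic array by 0.69 in females (1.62-fold) and by 0.79 in males (1.73-fold). Among 22750 genes compared in both pairs, 3.31% were over 1.5-fold higher in both sexes. CF lay above MM, so the M and C arrays overlapped across the sexes. The sign held under the 9 settings, from 0.23 to 1.09 in females and from 0.57 to 1.35 in males. The size did not: the female value fell under 1.5-fold with quantile normalization (0.23), with normexp (0.36) and with the position trend removed (0.58), and the male value with the position trend removed (0.57), where neither sex passed. Relative to the median of the other 8 members Cpox was higher by 0.90 in females and 0.94 in males. Its probe (A_51_P257258) spans chr16:58680403-58680465 of mm9, plus strand, and its first 30 bases are given as those of the member with the most even difference.
Cpox, bases 1 to 30: gtatgtgattgtgtttgccacttttagggt

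Ppox, the enzyme after Cpox, was at 3.20 on MF, 3.95 on CF, 3.08 on MM and 3.21 on CM. CF was the high array, and both M arrays lay below both C arrays, although by 0.01 alone. Uros showed the same order, with a gap of 0.07, and so did 16.5% of the 19303 genes. The difference was -0.75 in females, 1.68-fold higher on CF and negative under the 9 settings (-0.89 to -0.34), and -0.14 in males. The neighbours in the pathway, Cpox and Ppox, therefore differed in opposite directions between MF and CF.

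Fech, which inserts iron into protoporphyrin, was at 6.73 on MF, 6.78 on CF, 6.06 on MM and 6.72 on CM. MM stood below the other arrays, which lay within 0.06. The difference was -0.06 in females and -0.66 in males, 1.58-fold higher on CM. In males it was negative under the 9 settings, from -0.86 to -0.10, and in females it changed sign (-1.11 to 0.34).

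**Figure D2:**
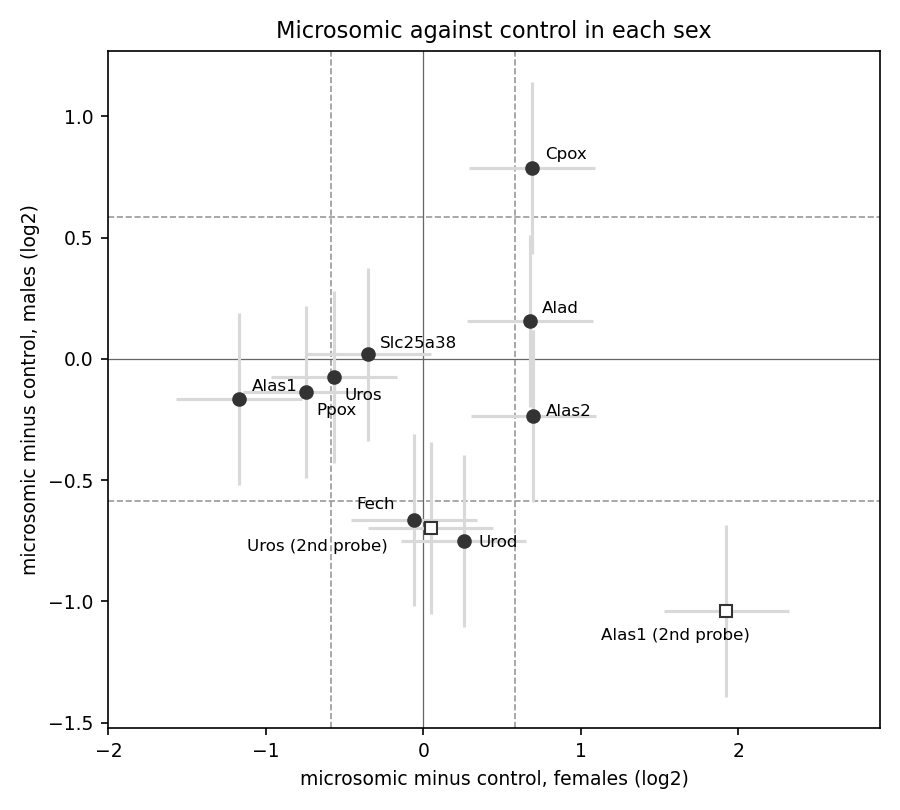
Microsomic minus control (log2) in females on the horizontal axis against males on the vertical axis for each probe, filled circles for the brighter and open squares for the second probe of a gene, with bars of 1 standard deviation of a difference between single spots of bright probes, which the second probes were not, and dashed lines at 1.5-fold. Cpox (0.69 and 0.79) is the one gene past the dashed line in both sexes, and the second Alas1 probe (1.93 and -1.04) lies far from the first (-1.17 and -0.17).

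Between the sexes, 7 of the 9 members were lower on the male than on the female array in each of CM vs CF and MM vs MF. These pairs share no array with each other, but each shares its arrays with the M vs C pairs. In CM vs CF, 3 were over 1.5-fold lower and none higher, where 47.6% of 24393 genes passed, 20.1% downwards and 27.5% upwards. In MM vs MF, 6 were over 1.5-fold lower and 1 (Alas1) higher, where 49.2% of 26585 genes passed, 20.2% downwards and 29.0% upwards. No background of genes as bright as the members was computed for the sex pairs. The shares past 1.5-fold and the medians beside the members are therefore those of all genes, most of them dimmer. The members' median difference was -0.44 in controls and -0.68 in microsomic livers, beside 0.03 and 0.13 over all genes. Over the 9 settings the median lay between -0.86 and -0.17 in controls, with 6 to 9 members lower, and between -0.96 and -0.19 in microsomic livers, with 6 to 8 lower. Single members turned in CM vs CF, where normexp gave 0.48 for Alas2 and 1.12 for Alad, and Urod ran from -0.28 to 1.18. In controls the lowest values were those of Slc25a38 (-1.05), Cpox (-1.01) and Ppox (-0.74). In microsomic livers Alas2 (-1.38), Cpox (-0.91) and Urod (-0.87) led downwards, and Alas1 was higher by 1.29. For 5 of the 9 members both female arrays lay above both male arrays (Alas2, Alad, Cpox, Fech and Slc25a38), against 19.5% of the 19303 genes bright enough on every array, although the gap was 0.01 for Alad and Fech. Alas1 alone had both male arrays above both female arrays, by 0.12, against 23.5%. Of 19 erythroid markers, 16 were lower on CM than on CF and 17 lower on MM than on MF. In MM vs MF, 12 of 15 hepatocyte markers (median -0.57) and 13 of 16 granulocyte and macrophage markers (median -0.70) were lower too. Their part in the sex differences of the members was not tested.

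With limma, fitted to the 4 arrays with terms for group and for sex and left with 1 residual degree of freedom, an adjusted p under 0.05 was reached by none of the 19303 genes tested (0.0%). An unadjusted p under 0.05 was given to 853 genes (4.42%), with no member among them. The M minus C estimate of Cpox was 0.74 ± 0.41 (SE), with a 95% interval of -0.22 to 1.70 and an adjusted p of 0.995 by limma. That of Alas1 was -0.67 ± 0.45, with an interval of -1.72 to 0.39 and the same adjusted p. The other 7 estimates lay between -0.44 (Ppox) and 0.42 (Alad). For 5 of the 9 members the interval held differences of more than 1.5-fold in both directions, so the design could not show that M and C were alike.

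**Figure D3:**
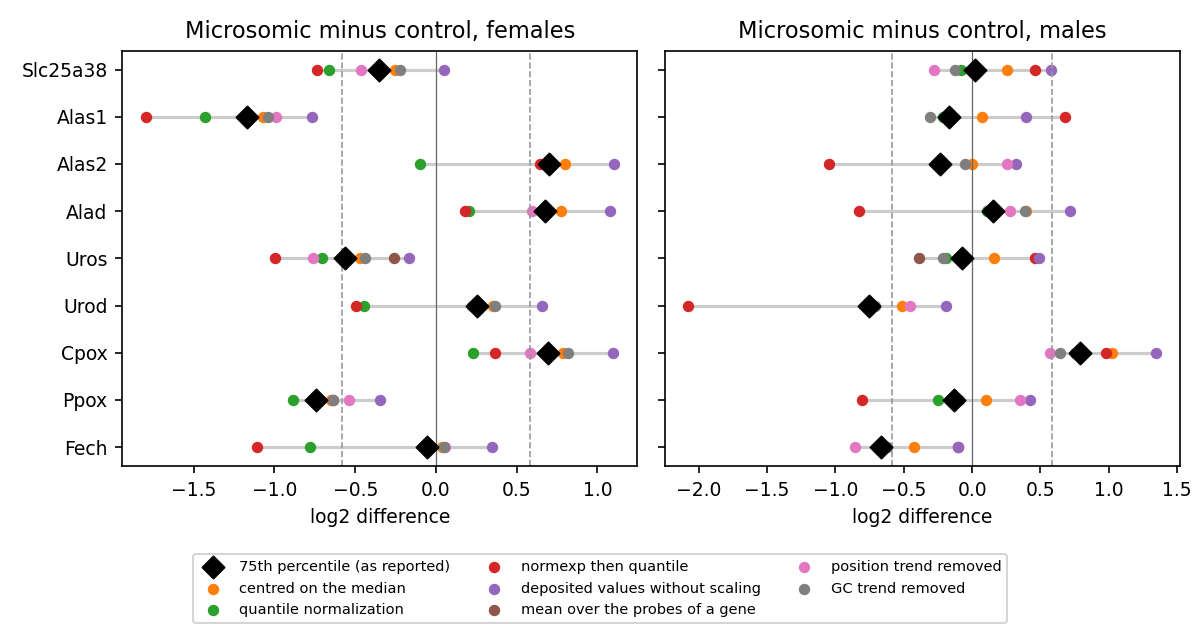
Microsomic minus control (log2) of each member in females (left) and males (right) under the settings tried, with the reported value as a black diamond and dashed lines at 1.5-fold. Points of Alas1, Uros, Ppox (left), Urod and Fech (right) stay below 0 and those of Cpox stay above 0 in both sexes, while Alas2 in females crosses 0 with quantile normalization (-0.10).

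The genes that move intermediates and iron for the pathway were counted from a list of 20 mitochondrial transporters and helpers. In females 3 were over 1.5-fold higher and 3 lower (median -0.18), and in males 6 higher and 2 lower (median 0.23). Tmem14c, which carries protoporphyrinogen into the mitochondrial matrix and so stands between Cpox and Ppox, was at 6.82 on MF, 5.68 on CF, 5.31 on MM and 4.07 on CM. It was higher on the microsomic array in both sexes, by 1.13 and 1.24, like Cpox in direction and in its lower level on the male arrays. Cox15, which makes haem A for cytochrome oxidase, was also over 1.5-fold higher in both, by 0.64 and 0.61. Abcb10, a mitochondrial transporter of erythroid cells, differed by 0.45 and 0.79, and Nfs1, the cysteine desulfurase of iron-sulfur cluster assembly, by -0.19 and -1.08.

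Of 13 genes of haem export, binding and breakdown, 3 were over 1.5-fold higher and 1 lower in females, and 2 higher and 4 lower in males. Slc48a1, which returns haem from the lysosome to the cytosol, was at 6.37 on MF, 3.86 on CF, 5.03 on MM and 4.32 on CM, that is 2.51 and 0.72 higher on the microsomic arrays. Slc46a1, a folate and haem carrier of the gut, was 0.93 and 1.004 higher. The intestine markers stood high on MF, and their part in the values of Slc46a1 and Slc48a1 was not tested. Flvcr2, a transporter listed as Mfsd7c on the array, differed by -0.85 and -0.98. Hmox1, the inducible haem oxygenase, differed by -0.27 and -0.71, past 1.5-fold in males alone.

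Among 7 genes of haem and iron sensing, none was over 1.5-fold higher and 3 were lower in females (median -0.58), and 3 were higher and 1 lower in males (median -0.01). Nr1d1, a haem-binding nuclear receptor that represses Alas1 by way of its co-activator, was over 1.5-fold lower on both microsomic arrays (-0.78 and -1.67). Ireb2, an iron regulatory protein that binds the Alas2 message, differed by -1.51 in females and -0.01 in males, and Aco1, the other such protein, by 0.32 and 1.35. Of 6 genes of erythroid iron uptake none was over 1.5-fold higher in either pair, and 2 were lower in females and 1 in males. Exoc6, which recycles transferrin receptor vesicles, was the lowest by the mean of both pairs (-1.001 and -0.58), and Pcbp1, an iron chaperone, was the highest (0.17 and 0.16).

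A list of genes for the control of hepatic Alas1 showed no common direction. It did not hold regulators alone: Tat, a target gene, was counted among those lower in females. Of the 9 measured, 3 were over 1.5-fold higher and 3 lower in females, and 2 higher and 1 lower in males. Hnf4a, a hepatocyte transcription factor, was higher on both microsomic arrays, by 0.64 and 1.01, and Tat, a glucocorticoid and fasting target, differed by -1.69 in females and -0.14 in males. A list for hepatic haem proteins held 18 genes, not all of which encode proteins that bind haem. In females 3 were over 1.5-fold higher and 6 lower, beside 20.2% and 21.4% of all genes. In males 6 were higher and none lower, beside 18.7% and 24.6% of all genes. Among genes at least as bright as the dimmest member the shares were 35.7% and 9.93% in females, and 12.1% and 12.3% in males. The lowest was Tdo2, the haem-dependent tryptophan dioxygenase, with differences of -3.74 in females and -0.48 in males. The highest was Cyp51, the sterol demethylase, at 1.26 on MF, -0.77 on CF, 1.94 on MM and -1.06 on CM.

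The cell types that make haem were read from marker lists. Of 10 erythroid transcription and growth regulators, 1 was over 1.5-fold higher and 1 lower in females, and 1 higher and none lower in males. Nfe2, which drives globin and haem synthesis genes, was higher in both pairs (0.79 and 0.72), whereas Gata1, the leading erythroid factor, differed by -0.31 and -0.11. Gfi1b, a repressor of the lineage, was lowest by the mean of both pairs (-0.48 and -0.32). Of 19 erythroid markers 4 were over 1.5-fold lower and 1 higher in each pair, with medians of -0.32 and -0.34, which became 0.09 and 0.22 without scaling. Hbb-b1, a beta globin, differed by -0.68 and -0.86, and Hbb-b2, the other beta globin of the list, by 0.10 and -1.31. Hba-a1, an alpha globin, differed by -0.54 and -0.46. The highest of the list by the mean of both pairs was Rhd, a blood group protein (0.43 and -0.10), and the lowest was Sptb, the erythroid spectrin beta chain, listed as Spnb1 (-0.98 and -0.70). The summed erythroid signal was 3161 on MF, 3881 on CF, 2152 on MM and 3667 on CM, lower on each microsomic array. Most of each sum came from the globin probes of Hba-a1, Hbb-b1 and Hbb-b2. By single markers, 7 of the 19 were higher and 12 lower in females, and 2 were higher and 17 lower in males. Of 15 hepatocyte markers, 3 were over 1.5-fold higher and 1 lower in females (median 0.21), and 1 higher and 7 lower in males (median -0.41). By the mean of both pairs they ran from Vtn, vitronectin (1.13 and 0.07), to Trf, transferrin (-0.27 and -1.12). The hepatocyte median ran from -0.36 (quantile normalization) to 0.61 in females and from -0.61 to 0.15 in males over the settings. Their summed signal was 9724 on MF, 8738 on CF, 6452 on MM and 9314 on CM, so that MM, the array low in Urod and Fech, was also lowest in the sums of both cell types. Their part in the member values was not tested.

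**Figure D4:**
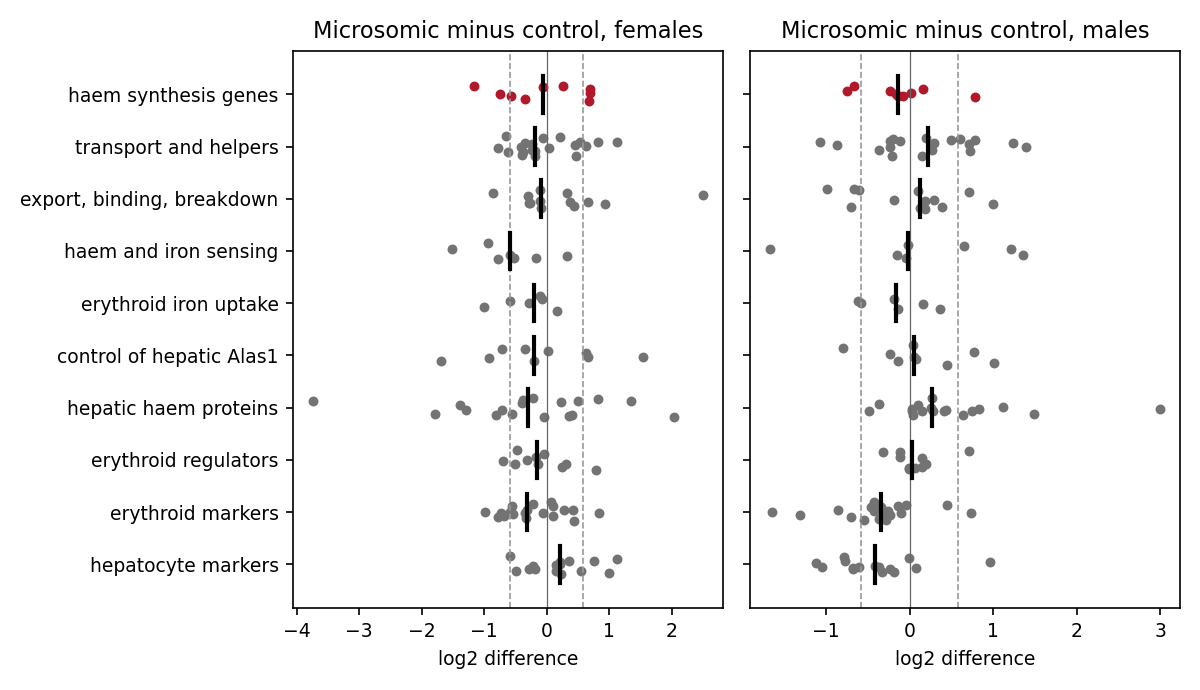
Microsomic minus control (log2) of each gene of the lists in females (left) and males (right), with the haem synthesis genes in red, a black bar at each list's median and dashed lines at 1.5-fold. The members spread from -1.17 to 0.70 in females and from -0.75 to 0.79 in males around medians of -0.06 and -0.14.

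The genes of all lists whose pattern over the arrays was most like that of a synthase gene were named by the distance between centred log2 values, among 162 candidates. For Alas1 they were Ireb2, at a root mean square distance of 0.13, Cox10, the haem O synthase (0.24), and Sucla2, a subunit of succinyl-CoA synthetase (0.25), with a median of 0.75 over the candidates. For Alas2 they were Glrx5, a glutaredoxin of iron-sulfur cluster assembly (0.08), and the granulocyte proteases and peroxidase genes Prtn3 (0.08) and Mpo (0.17), with a median of 0.61. Glrx5 was at 7.59 on MF, 7.06 on CF, 6.34 on MM and 6.45 on CM, and Mpo at 6.30, 5.29, 5.07 and 5.02. A likeness over 4 arrays describes these arrays alone.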

How the data were processed

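Liver RNA of 4 groups, 1 array each, carried the dye Cy3 on Agilent arrays read in 1 colour. Per the file headers the scans were read by Agilent Feature Extraction 10.7.3.1. The processed signal deposited by the authors is an intensity on a linear scale, background-subtracted and detrended by that software, with no normalization between arrays. The value table deposited beside it equalled this signal in all 62976 spots within a relative tolerance of 1e-06, with medians of 49.3, 61.6, 39.5 and 50.1 on MF, MM, CF and CM. The flags deposited with each spot (well above background, outliers) were used for filtering, and that for saturation was read for the members.

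Each array's 75th percentile over its 59305 non-control spots was subtracted on the log2 scale, and arrays were compared within each sex. Spots flagged as outliers anywhere (1754) were dropped everywhere, and the brightest probe stood for a gene. A difference was counted when it exceeded 1.5-fold with at least 1 array well above background. A side not above background gave a bound, taken against the lowest signal well above background (on the log2 scale -5.98 for MF, -5.65 for MM, -5.48 for CF, -4.62 for CM) or the probe's own signal where higher. limma 3.58.1 in R 4.3.3 was fitted to the 4 arrays with Benjamini-Hochberg adjustment, after the fit had been tested on simulated data. The sexes served there as replicates of M and C. A gene's single residual is therefore the disagreement of the sexes in M minus C, not a spread between replicate livers of a group. limma moderated it with the variances of the other genes, which brought the degrees of freedom to a median of 7.43. Its standard errors, intervals and p-values rest on both. The number of arrays limits the precision.

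The members and lists were chosen with earlier results of these data known. Named genes were, in each haem list, those over 1.5-fold the same way in both sexes and the highest and lowest by the mean of both differences, in the erythroid, hepatocyte and granulocyte and macrophage markers the highest and lowest alone, with Fabp2 and Myh6 for the intestine and heart, and for the synthase genes the nearest 3 in pattern. Other genes named (Abcb10, Hmox1, Gata1, Hbb-b1, Hbb-b2, Hba-a1 and the intestine markers Tff3, Cdx2, Cdh17 and Lypd8) were chosen after their values were seen. Probe positions come from the array's annotation (mm9), promoter windows are RefSeq on GRCm38.p6 and were searched for 8 members. As alternatives, values were quantile normalized, corrected by normexp (offset 50) and then quantile normalized, centred on the median, or left without scaling. Others were the mean over probes, flagged spots kept, removal of trends with array position and with GC content, other filters on dim probes, a 2-fold threshold, and for limma no sex term, an intensity trend and the threshold of the methods. Some items of the pathway and its probes are not reported here.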

Additional observations from a re-analysis of the deposited data

Results flagged for a closer look

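The second probe of Alas1 differed in opposite directions in the sexes, by 1.93 in MF vs CF and by -1.04 in MM vs CM. The difference between the sexes was not tested, since each group has 1 array. Its spot carried the non-uniformity flag on the MF array, as 916 spots did there against 130 on MM, 182 on CF and 136 on CM, and the part of this flag in the value was not tested.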

How the results depend on the processing

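No paired analysis was possible because each group has 1 array and the labels carry no replicate numbers, and for the same reason no array could be left out. The members' median in MF vs CF was -0.06, and -0.66 with quantile normalization, -0.64 with normexp and quantile, and 0.34 without scaling. The members over 1.5-fold higher, 3 as reported, numbered 0 with quantile, 1 with normexp and 0 at 2-fold, and those lower, 2 as reported, numbered 5 with quantile, 5 with normexp, 1 without scaling and 1 at 2-fold. In MM vs CM the median was -0.14, and 0.42 without scaling. The members higher, 1 as reported, numbered 2 with normexp, 2 without scaling, 0 with the position trend removed and 0 at 2-fold, and those lower, 2 as reported, numbered 0 when centred on the median, 4 with normexp, 0 without scaling, 1 with the position trend removed and 0 at 2-fold. Differences past 1.5-fold, or estimates of limma, changed sign for Alas2 in females with quantile (-0.10), for Alad in MM vs MF with normexp (0.11 against -0.69), and in limma for Alas2 (-0.17 with quantile, -0.20 with normexp), Alad (-0.33 with normexp) and, without scaling, Uros (0.16), Urod (0.23), Ppox (0.040), Fech (0.12) and Slc25a38 (0.31). At an adjusted p under 0.05 limma called 10 genes of all without scaling, against 0 as reported. The threshold of the methods is a different measure, an unadjusted p under 0.01 with a difference over 1.5-fold. By limma 163 genes passed it with the reported scaling and 598 without scaling. Without scaling the median of all genes lay at 0.34 in females and 0.51 in males. Of all genes past 1.5-fold in females 48.5% were higher as reported and 79.6% without scaling, and in males 43.1%, 60.8% when centred on the median and 78.3% without scaling. The cause of these changes was not tested. Of the alternatives of the median, the member counts and the limma count, 62 stayed within the limits set and 22 moved beyond them. Of those of single genes, list medians and values over all genes, 441 stayed, 80 moved and 10 changed sign. The limit was 1.5-fold for a count, and the spot standard deviation for a difference between a pair of arrays.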
